A study of Mus musculus with 8 samples.

Results

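Mef2a, Mef2c and Mef2d encode 3 of the myocyte enhancer factors, and Vgll2, Vgll3 and Srf encode partners with which such factors work in muscle. All 6 were looked up by mouse gene symbol in a table of raw read counts per Ensembl gene, where they make up 6 of 37558 genes, and each reached 1 CPM, the unit of scaled counts relative to library size, in at least 1 of the libraries. RNA was measured in P19 cells, a mouse embryonal carcinoma line that can form neurons or muscle in culture. Every culture was infected with a lentivirus in MEMα medium with polybrene and later moved to Neurobasal medium with B27 and glutamine, a medium for neurons. The GFP culture received green fluorescent protein, the MyoD and NeuroD2 cultures received those transcription factors, and the chimera culture received MyoD in which the basic helix-loop-helix (bHLH) domain was that of NeuroD2. WC and WCS are mutants of that chimera, and the labels leave their nature undefined. A further culture of the chimera and a further one of WCS carry the label MOI 100 (MOI, multiplicity of infection), while the labels give no MOI for the other 6. Each of these 8 groups was 1 culture with 1 library, so there is no spread between replicates for any group, and no value below can be set against one. Intervals printed with a ratio are 95% intervals by the exact Clopper-Pearson method on a gene's counts in a pair of libraries, and they cover counting error only.

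MEF2 proteins are MADS-box transcription factors that bind AT-rich sites and act together with MyoD and myogenin to switch on sarcomere genes. They also act in neurons, where they respond to activity, and Mef2c is known as a gene that myogenic bHLH factors turn on during muscle differentiation. SRF is a related MADS-box factor that binds CArG boxes in actin, cytoskeletal and immediate early genes, and VGLL2 and VGLL3 are coactivators of TEAD factors, of which VGLL2 is a muscle protein. MyoD and NeuroD2 are bHLH factors that bind E-boxes, sites of the form CANNTG. Both bind the core CAGCTG, whereas MyoD prefers CAGGTG over the motif CAGATG and NeuroD2 the reverse.

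The sequences just upstream of 4 transcription starts are shown because Mef2c and Vgll2 had the widest ranges over the libraries and Srf the narrowest. They are the 250 bases before each start in RefSeq's table for build GRCm38.p6, 5′ to 3′ on the strand of the gene, and all 6 genes were matched there by symbol. Capitals mark E-boxes in the Mef2c and Vgll2 sequences and CArG boxes in the Srf sequence.
Mef2c, first start, chr13:83503784-83504033, plus strand: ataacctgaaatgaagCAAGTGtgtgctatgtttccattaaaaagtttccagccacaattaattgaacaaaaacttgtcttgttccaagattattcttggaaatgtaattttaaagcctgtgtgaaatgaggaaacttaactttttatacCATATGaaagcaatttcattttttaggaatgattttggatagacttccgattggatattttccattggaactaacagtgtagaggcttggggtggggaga
Mef2c, last start, chr13:83573357-83573606, plus strand: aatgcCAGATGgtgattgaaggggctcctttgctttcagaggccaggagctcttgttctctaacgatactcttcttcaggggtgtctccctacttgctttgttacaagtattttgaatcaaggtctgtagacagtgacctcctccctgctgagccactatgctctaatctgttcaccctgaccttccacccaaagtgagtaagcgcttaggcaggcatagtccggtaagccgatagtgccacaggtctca
Vgll2, chr10:52022252-52022501, plus strand: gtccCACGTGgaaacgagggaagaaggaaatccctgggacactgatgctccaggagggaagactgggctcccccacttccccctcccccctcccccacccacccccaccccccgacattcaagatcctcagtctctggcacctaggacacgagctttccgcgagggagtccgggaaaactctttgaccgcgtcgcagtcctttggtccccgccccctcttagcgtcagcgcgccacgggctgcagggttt
Srf, chr17:46556163-46556412, minus strand: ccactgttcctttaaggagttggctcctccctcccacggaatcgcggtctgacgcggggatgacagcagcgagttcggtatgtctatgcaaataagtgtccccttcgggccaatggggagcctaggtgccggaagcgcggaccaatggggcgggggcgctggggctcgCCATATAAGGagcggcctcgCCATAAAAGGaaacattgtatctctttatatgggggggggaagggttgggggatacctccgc
The first Mef2c window held CAAGTG at positions -234 to -229 from the start and CATATG at -100 to -95. The last Mef2c window held CAGATG at -245 to -240, and the Vgll2 window held CACGTG at -246 to -241. The Srf window held 2 CArG boxes, at -82 to -73 and -62 to -53. None of these motifs was found in the windows of Mef2a, Mef2d and Vgll3 or at the middle of the 3 Mef2c starts, and no window held a MEF2 site. Both strands were searched, and every E-box of a named core also counts as CANNTG. Of 32851 windows of this length in the table, 66.2% held CANNTG, 13.0% CAGCTG, 17.2% CAGGTG, 14.4% the motif CAGATG, 1.47% a CArG box and 2.92% a MEF2 site. A match describes letters in this window and says nothing of whether a factor bound there.

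Mef2c, the MEF2 gene most tied to muscle differentiation, spanned the widest range of the 6. It stood at 391.7 CPM in MyoD, 41.5 in the chimera at MOI 100, 25.99 in the chimera, 8.59 in WCS at MOI 100, 5.14 in WC, 5.10 in WCS, 4.30 in NeuroD2 and 0.949 in GFP. MyoD was thus high, both chimera libraries intermediate and GFP lowest. The WC and WCS levels differed by a ratio whose interval held 1, and so did WCS and NeuroD2, while each other pair of neighbours in this order lay apart by more than counting error. The MyoD level was 413-fold that of GFP (interval 302 to 581), which ranked 13 from the top among the 15547 measured genes, those that reached 1 CPM in any library. Between NeuroD2 and GFP the ratio was 4.53 (3.14 to 6.67), and between MyoD and NeuroD2 it was 91.2 (76.3 to 110).

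**Figure D1:**
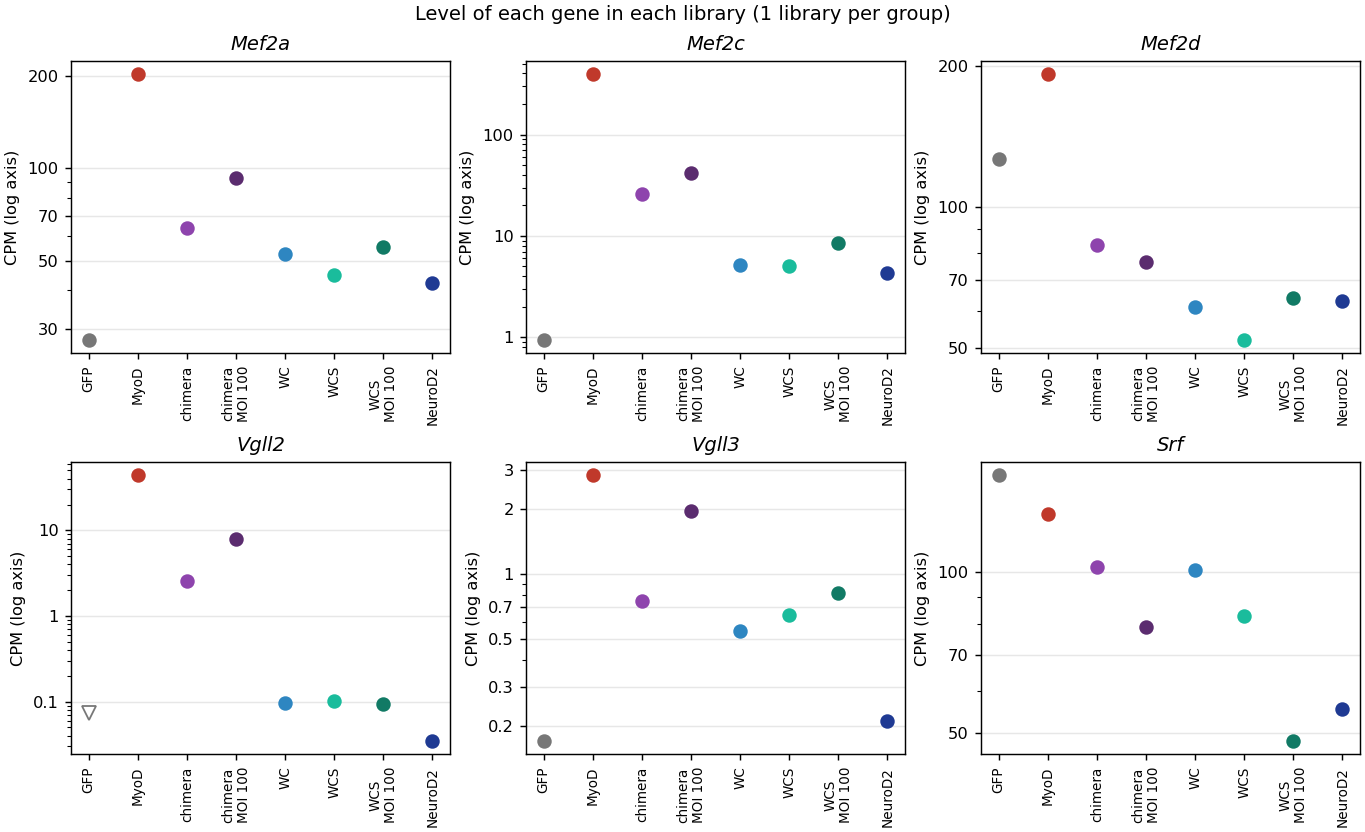
Level of each of the 6 genes in each library, in CPM on a log axis with its own range per gene. Each point is 1 library, the open triangle for Vgll2 in GFP marks a count of 0 drawn at the level of 3 counts (0.073 CPM), and MyoD is the highest library for every gene except Srf, which is highest in GFP at 152 CPM.

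Mef2a, a MEF2 gene expressed in many tissues, had the same library at the top with a smaller span. Its level was 202 CPM in MyoD, 92.98 in the chimera at MOI 100, 64.0 in the chimera, 55.2 in WCS at MOI 100, 52.7 in WC, 44.8 in WCS, 42.2 in NeuroD2 and 27.6 in GFP. WCS at MOI 100 and WC did not differ beyond counting error, nor did WCS and NeuroD2. MyoD stood 7.32-fold above GFP (6.86 to 7.81) and 4.79-fold above NeuroD2 (4.50 to 5.11), and NeuroD2 stood 1.53-fold above GFP (1.41 to 1.66). The Mef2a exons share 302 bases, or 2.06% of their length, with Lysmd4 on the opposite strand. Whether reads were assigned by strand is not given in the sources used here.

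Mef2d, the remaining MEF2 member, did not follow that order, because GFP was its second-highest library. It stood at 192 CPM in MyoD, 127 in GFP, 83.1 in the chimera, 76.3 in the chimera at MOI 100, 63.9 in WCS at MOI 100, 63.1 in NeuroD2, 61.1 in WC and 52.1 in WCS. WCS at MOI 100 and NeuroD2 did not differ beyond counting error, nor did NeuroD2 and WC. The MyoD level was 1.52-fold that of GFP (1.46 to 1.58), and the NeuroD2 level was 0.498 of it (0.472 to 0.526). A GFP level at least 1.5-fold above each of the 6 libraries other than MyoD, as for Mef2d, was found for 1344 of 15547 measured genes, or 8.64%. An antisense gene model, 1700113A16Rik, overlaps 531 bases of the Mef2d exons, or 8.87% of their length.

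Levels of different genes can be set side by side only per length. Per kilobase of exon, Mef2d made up 68.7% of the summed Mef2a, Mef2b, Mef2c and Mef2d level in GFP and Mef2c 0.196%. In MyoD the shares were 33.4% for Mef2d, 26.3% for Mef2b, 25.95% for Mef2c and 14.3% for Mef2a. Mef2c's share was 6.65% in the chimera and 11.01% in the chimera at MOI 100, against 1.57% to 3.30% in NeuroD2, WC and both WCS libraries. The sum itself was 96.1 CPM per kilobase in MyoD, 30.8 in GFP and 16.6 to 24.9 in the other 6 libraries. With the length of the longest transcript in place of the union of exons, the MyoD shares became 38.8% for Mef2c and 22.1% for Mef2d, so the order of these genes in MyoD depends on the length used. Mef2b, the fourth MEF2 gene, is no member of the set and its counts carry a limit, since it shares 62 exon bases with Borcs8, whose own counts were 799 to 3038 per library.

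Vgll2, the muscle coactivator of TEAD factors, had at most 3 counts in each library other than MyoD and the 2 chimera libraries. Its counts were 1139 in MyoD, 228 in the chimera at MOI 100, 68 in the chimera, 3 each in WC, WCS and WCS at MOI 100, 1 in NeuroD2 and 0 in GFP. These counts correspond to 43.7, 7.91 and 2.56 CPM in the first 3 libraries and to at most 0.102 CPM in the other 5, whose order counting error does not resolve. A count of 0 in GFP allows a level of up to 0.073 CPM (3 counts per library). MyoD was at least 599-fold above GFP, the chimera at MOI 100 at least 108.5-fold and the chimera at least 35.1-fold, each against that floor. Against the single count in NeuroD2 the MyoD ratio was 1252 with a counting interval of 224 to 49490.

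Vgll3, a second TEAD coactivator of the same family, was low in all 8 libraries. It had 74 counts or 2.84 CPM in MyoD and 56 counts or 1.94 CPM in the chimera at MOI 100. The level was 0.815 CPM in WCS at MOI 100, 0.754 in the chimera, 0.645 in WCS, 0.546 in WC, 0.210 in NeuroD2 and 0.170 in GFP, from 6 to 26 counts each. From WCS at MOI 100 down to GFP no pair of neighbours lay apart by more than counting error. MyoD was 16.7-fold above GFP (7.71 to 43.0) and 13.6-fold above NeuroD2 (5.94 to 38.1), while the ratio of NeuroD2 to GFP was 1.23 with an interval of 0.342 to 4.28. Vgll3 stayed under 5 CPM in every library, the minimum used below for calling a difference.

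Srf was the only gene of the 6 for which no library exceeded GFP, although Mef2d was also below GFP in every library except MyoD. Its level was 152 CPM in GFP, 129 in MyoD, 103 in the chimera, 101 in WC, 82.8 in WCS, 79.1 in the chimera at MOI 100, 55.5 in NeuroD2 and 48.4 in WCS at MOI 100. The chimera and WC did not differ beyond counting error, nor did WCS and the chimera at MOI 100. MyoD stood at 0.849 of the GFP level (0.814 to 0.885) and NeuroD2 at 0.366 (0.346 to 0.387). The span of log2(CPM + 0.5) from lowest to highest library was 1.64 for Srf, against 1.87 for Mef2d, 2.32 for Vgll3, 2.85 for Mef2a, 6.47 for Vgll2 and 8.08 for Mef2c. Being highest in MyoD, as 5 of the 6 genes were, was found for 17.3% of measured genes, and being highest in GFP, as Srf was, for 27.0%.

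A gene was called different between a pair of libraries when log2(CPM + 0.5) differed by at least 4-fold and the higher library had at least 5 CPM. Between MyoD and GFP 3 of the 6 genes met this rule, all higher in MyoD, namely Mef2a, Mef2c and Vgll2. Among all 15547 measured genes 3.67% met it in that comparison. The median log2 difference of the 6 genes was 2.58, against -0.03 over all measured genes. The same 3 genes were higher in MyoD than in NeuroD2, where the background was 7.05%. Between NeuroD2 and GFP 0 of 6 met the rule, with a background of 5.98% and a median of 0.09 against 0.03 over all genes. Comparisons with GFP share that library, and no relation between them is drawn.

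**Figure D2:**
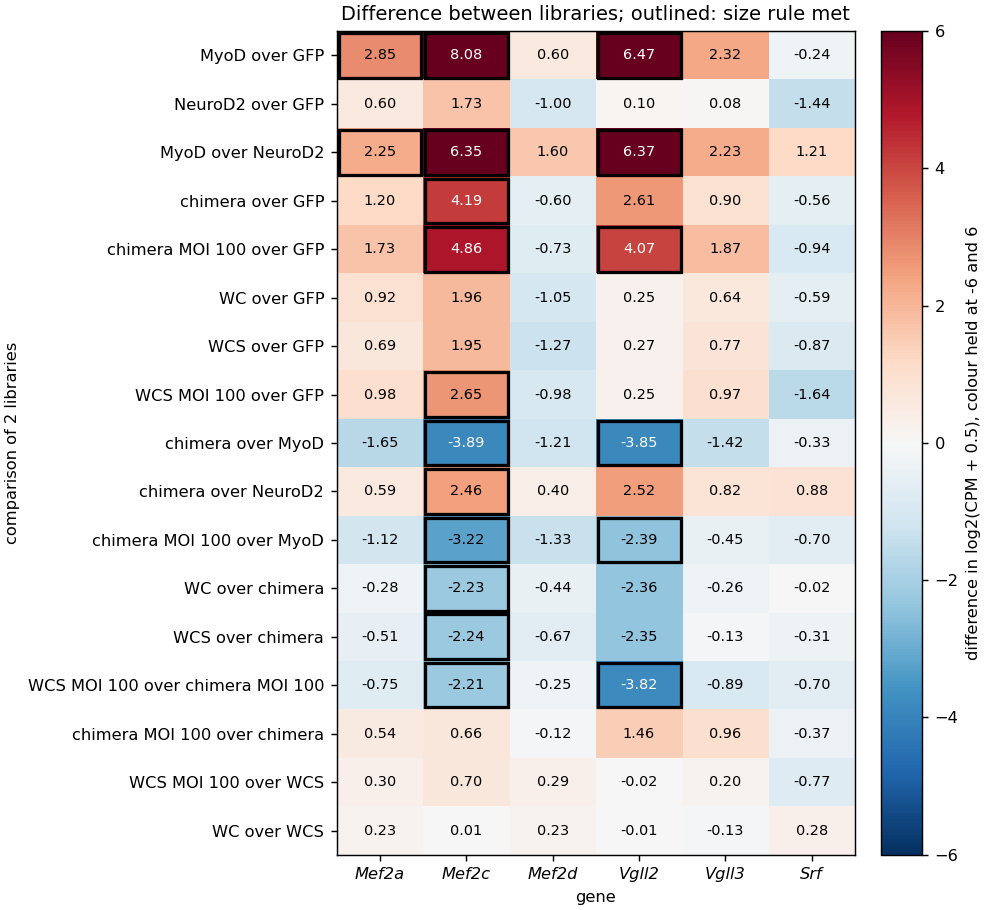
Difference on the log2(CPM + 0.5) scale of each gene in each of the 17 comparisons of a pair of libraries, with cells coloured by size and direction and the values printed in them. Mef2c and Vgll2 hold the largest values, led by Mef2c in MyoD over GFP, while Srf is lower than GFP in all 7 libraries compared with it.

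The chimera comparisons ask how far MyoD with a NeuroD2 bHLH domain follows either parent. Mef2c was 27.4-fold above GFP in the chimera (19.8 to 38.9), rank 56 from the top, and it was the 1 gene of 6 past the size rule, with a background of 2.89%. Mef2a was 2.32-fold above GFP (2.15 to 2.50) and Vgll3 4.43-fold (1.798 to 12.4), while Mef2d stood at 0.656 (0.624 to 0.690) and Srf at 0.675 (0.645 to 0.706) of GFP. Vgll2 was far above its floor in GFP but under 5 CPM in the chimera. At MOI 100 both Mef2c, 43.7-fold above GFP (31.8 to 61.8), and Vgll2 met the rule, with a background of 7.91%. Vgll3 was then 11.4-fold above GFP (5.19 to 29.7) at 1.94 CPM.

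Set against the parents, the chimera lay below MyoD for all 6 genes and above NeuroD2 for all 6. The share of all measured genes with this order is not given, so the count describes these genes only. Their median log2 difference was -1.53 from MyoD and 0.85 from NeuroD2, against 0.03 and 0.006 over all measured genes. Mef2c in the chimera was 0.0664 of its MyoD level (0.0614 to 0.0717) and Vgll2 was 0.0586 (0.0452 to 0.0749), and these 2 genes met the size rule, with a background of 3.33%. Mef2a was 0.316 of the MyoD level, Mef2d 0.432, Vgll3 0.265 and Srf 0.795. The chimera at MOI 100 stayed below MyoD for the same 2 genes past the rule, at 0.106 for Mef2c (0.0996 to 0.112) and 0.181 for Vgll2 (0.156 to 0.209), with a background of 6.2%. Over NeuroD2 the chimera was 6.05-fold higher for Mef2c (4.99 to 7.39), the 1 gene past the rule, with a background of 2.3%. Its Vgll2 ratio over NeuroD2 was 73.3 (12.7 to 2938), and that of Srf was 1.85 (1.73 to 1.97).

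Reads of Myod1, the gene whose sequence is part of MyoD, the chimera and its mutants, differed between these libraries and stand beside the result. Myod1 was at 296 CPM in MyoD, 116 in the chimera and 555 in the chimera at MOI 100. It was at 106 CPM in WC, 77.3 in WCS, 857 in WCS at MOI 100, 0.804 in NeuroD2 and 0.681 in GFP. The chimera at MOI 100 had 1.87-fold the Myod1 level of MyoD (1.82 to 1.93) and 0.106 of its Mef2c level. Myod1 is not a like measure of delivered sequence in MyoD and in the chimera, whose bHLH domain is that of NeuroD2. Neurod2 was at 0 CPM in MyoD, 13.8 in the chimera and 73.3 in the chimera at MOI 100. Its level was 15.8 CPM in WC, 14.6 in WCS, 130 in WCS at MOI 100, 180 in NeuroD2 and 2.505 in GFP. Delivered and endogenous reads of Myod1 or Neurod2 are counted together. The part of the Myod1 level in the Mef2c and Vgll2 differences was not tested.

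**Figure D3:**
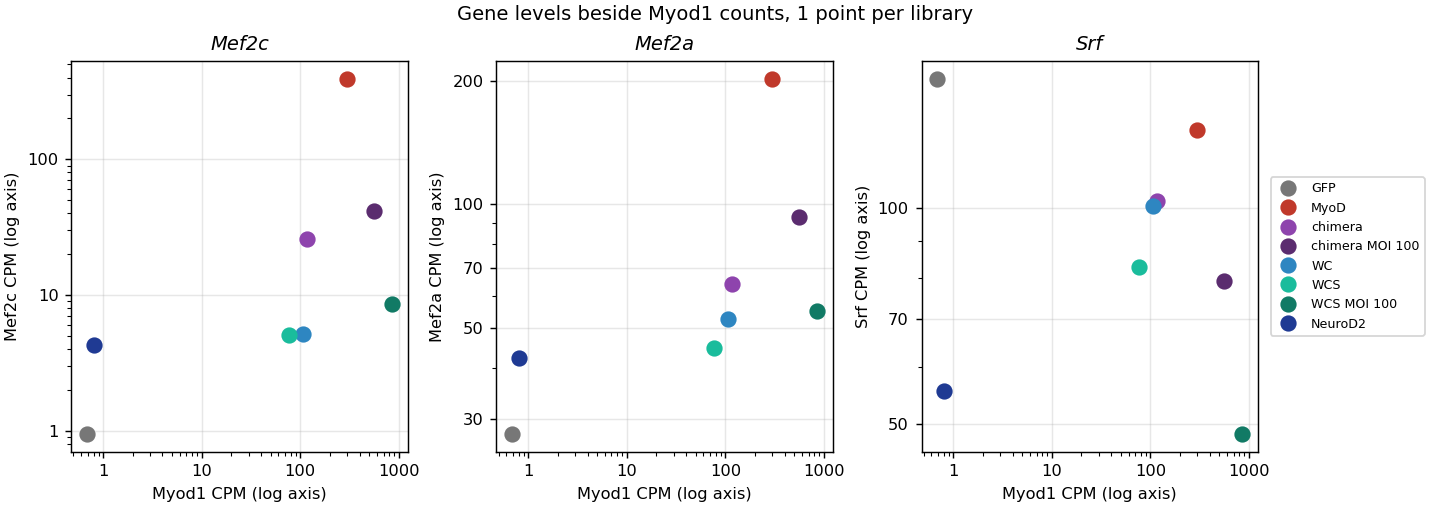
Level of Mef2c, Mef2a and Srf against the level of Myod1 in the same library, both in CPM on log axes, with 1 point per library. MyoD, at 296 CPM of Myod1, is the highest library for Mef2c and Mef2a and second to GFP for Srf, and WCS at MOI 100, at 857 CPM of Myod1, lies below both chimera libraries for each gene.

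The mutants ask what the WC and WCS changes do to the chimera. Mef2c was 0.198 of the chimera's level in WC (0.165 to 0.235) and 0.196 in WCS (0.163 to 0.234), and it was the 1 gene of 6 past the size rule in each comparison. The backgrounds were 1.04% for WC and 1.34% for WCS. Vgll2 was 0.0376 of the chimera's level in WC (0.00756 to 0.115) and 0.0398 in WCS (0.00801 to 0.121), from 3 counts in each mutant against 68. The Srf ratio of WC to the chimera, 0.983, had an interval of 0.934 to 1.04 that held 1. At MOI 100 both Mef2c, at 0.207 (0.181 to 0.236), and Vgll2, at 0.0119 (0.00243 to 0.0352), were past the rule in WCS against the chimera, with a background of 1.81%.

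Measured against GFP, 0 of 6 genes met the size rule in WC, with a background of 3.17%, and 0 of 6 in WCS, with a background of 3.44%. Mef2c was nonetheless 5.41-fold above GFP in WC (3.80 to 7.89). The ratio was 5.37 in WCS (3.76 to 7.85) and 9.05 in WCS at MOI 100 (6.46 to 13.0). That last difference met the rule, as 1 of 6, with a background of 8.47%. WC and WCS themselves were close, with 0 of 6 genes past the rule and a background of 0.0193%. Their Mef2c ratio was 1.01 (0.802 to 1.27), while Mef2a at 1.18 (1.09 to 1.27), Mef2d at 1.17 (1.10 to 1.25) and Srf at 1.22 (1.15 to 1.28) were higher in WC by more than counting error.

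The chimera and WCS, each with and without the MOI 100 label, make up 4 libraries in which the construct difference can be tested. In edgeR's quasi-likelihood fit on construct and MOI label, with Benjamini-Hochberg adjustment over 16079 genes, 3 of the 6 genes fell in WCS relative to the chimera and 0 rose. Mef2c fell by 2.31 on the log2 scale (adjusted p = 0.00049), Vgll2 fell by 5.60 (adjusted p = 0.00101) and Mef2a fell by 0.63 (adjusted p = 0.018) in the edgeR fit, each lower in WCS at both MOI labels. The fitted size for Vgll2 rests on 3 counts in each WCS library. The values for Srf, -0.50 with adjusted p = 0.0507, for Mef2d, -0.46 with adjusted p = 0.0937, and for Vgll3, -0.79 with adjusted p = 0.325, did not pass in edgeR, although Srf passed with DESeq2 size factors (adjusted p = 0.0395) and with total counts (adjusted p = 0.04). Over all genes 939 rose and 882 fell, a background of 11.3%, and the median log2 change was -0.71 for the 6 genes and -0.01 for all. The fit has 1 residual degree of freedom, so a small p-value reflects a construct difference of similar size with and without the MOI label, not one judged by the spread between cultures. Without the MOI term 0 genes passed, and with any 1 of the 4 libraries left out neither Mef2c nor Mef2a passed, while Vgll2 passed only without the chimera library.

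The same edgeR fit gives the difference that goes with the MOI 100 label. Mef2c rose by 0.71 (edgeR adjusted p = 0.0256) and Mef2a rose by 0.42 (edgeR adjusted p = 0.0433), whereas Srf fell by 0.58 (edgeR adjusted p = 0.0199). The Mef2a call was lost in the DESeq2 Wald test (adjusted p = 0.0886) and in edgeR with no filter (adjusted p = 0.0649). Vgll2, at 1.36 with adjusted p = 0.0647 in edgeR, Vgll3, at 0.88 with adjusted p = 0.177, and Mef2d, at 0.08 with adjusted p = 0.706, did not pass, although Vgll2 passed in edgeR with DESeq2 size factors (adjusted p = 0.0497) and with total counts (adjusted p = 0.0389). The background of this contrast was 25.5%, with 2153 genes that rose and 1955 that fell. By the size rule 0 of 6 genes differed between the 2 chimera libraries, with a background of 0.926%, or between the 2 WCS libraries, with a background of 1.18%. Vgll2 in the chimera at MOI 100 was 3.09-fold its level in the chimera (2.35 to 4.11), and in both WCS libraries it had 3 counts. For Mef2c the ratios were 1.595 in the chimera (1.45 to 1.76) and 1.69 in WCS (1.38 to 2.07). Myod1 was 4.80-fold higher in the chimera and 11.1-fold higher in WCS at MOI 100.

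Genes whose levels followed those of the members were ranked by Pearson's r of log2(CPM + 0.5) over the 8 libraries. The ranking was among 2316 genes with a span of at least 2 and at least 5 CPM in 1 library. The r describes the 8 libraries, in which each gene shares the same depth and scaling, and carries no test. Mef2c was most like Myh3, the embryonic myosin heavy chain (r = 0.990), Sox8, a SOX transcription factor (0.989), and Sh3bgr (0.987). Vgll2 was most like Trim63, a muscle ubiquitin ligase (0.997), Hfe2, hemojuvelin (0.995), and Ehbp1l1 (0.995). For Mef2a the nearest were Cd82, a tetraspanin (0.977), Tmem38a, a channel of the sarcoplasmic reticulum (0.975), and Pgam2, the muscle phosphoglycerate mutase (0.974). Vgll3 was nearest to Egr1, an immediate early transcription factor (0.977), Shisa2 (0.955) and Chpf2 (0.951). These r values rest on 6 to 74 counts of Vgll3 per library, whose order from WCS at MOI 100 down to GFP counting error does not resolve. Trim63, for example, stood at 28.2 CPM in MyoD, 5.83 in the chimera at MOI 100, 3.32 in the chimera and at most 0.417 in the other 5 libraries. Mef2d and Srf spanned under 2 and were not ranked.

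The muscle genes known as targets of MEF2, or of MEF2 with MyoD, had the same library at the top as Mef2c, which is itself in this list. Of 23 measured genes 22 were higher in MyoD than GFP by the size rule, against 3.67% of all measured genes called in either direction, with a median log2 difference of 6.50. The list holds 26 genes, of which Hspb7, Cav3 and Ppargc1a reached 1 CPM in no library. A gene could count as measured through MyoD alone, as did Ckm, at 5.26 CPM there and at most 0.347 elsewhere. The filter thus favours list members that are high in MyoD. Tnnt2, the cardiac and embryonic troponin T, was 2295-fold higher (1164 to 5317), Mylpf, a fast myosin light chain, 1134-fold (762 to 1770), and Des, the intermediate filament desmin, 10.03-fold (9.36 to 10.8). Against GFP 8 of 23 were higher in the chimera and 12 in the chimera at MOI 100, with medians of 2.16 and 2.68 and backgrounds of 2.89% and 7.91%. In NeuroD2 over GFP, with a background of 5.98%, 0 were higher and 1 lower. In the edgeR fit 20 of 22 tested fell in WCS relative to the chimera, with a median of -3.66 and a background of 11.3%. Skeletal muscle marker genes moved with this list, since the summed level of 12 was 10660 CPM in MyoD, 1638 and 981 in the chimera libraries and 18.4 to 50.9 in the other 5. Actc1, at 5163 CPM, and Myh3, at 3060, made up most of the MyoD sum, and Actc1 made up 42.3 of 48.6 CPM in GFP. By the size rule 12 of the 12 were higher in MyoD than GFP and 10 in the chimera. Myog departed from the order of the sums, at 197 CPM in the chimera at MOI 100 and 95.1 in MyoD. The lists are not separate, since 4 of those 12 markers, Chrna1, Ckm, Mylpf and Mymk, are also in the list of MEF2 targets. In bulk RNA, fewer cells of a type and less RNA per cell cannot be told apart.

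**Figure D4:**
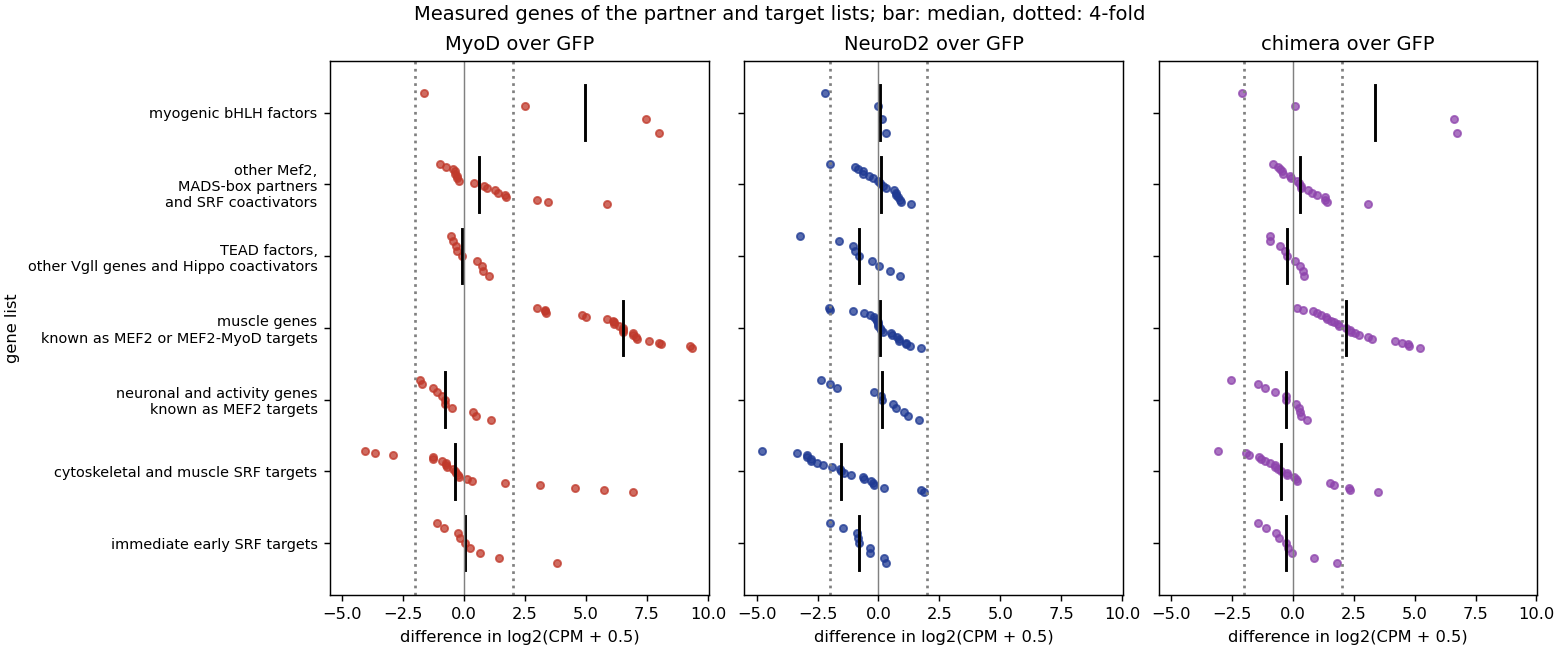
Difference on the log2(CPM + 0.5) scale of every measured gene of the 7 pathway lists in MyoD over GFP, NeuroD2 over GFP and the chimera over GFP, with 1 point per gene and a bar at each list's median. The muscle targets of MEF2 lie far to the right in MyoD, with a median of 6.50, and at 0.08 in NeuroD2.

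Of the 4 myogenic bHLH factors, which act upstream of Mef2c in muscle, Myod1 and Myog met the size rule in MyoD over GFP (background 3.67%). Myod1 is the gene delivered to the MyoD culture, so its call was fixed by the design. Myf5 went the other way, at 0.230 CPM in MyoD and 1.78 in GFP, and Myf6 was at 2.34 and 0 CPM. Myog, myogenin, was at 95.1 CPM in MyoD, 58.2 in the chimera, 197 in the chimera at MOI 100 and at most 0.175 in the other 5 libraries. Unlike Mef2c, it was thus higher in the chimera at MOI 100 than in MyoD, by 2.07-fold (1.98 to 2.17). In the 4-library edgeR fit Myog fell in WCS relative to the chimera (adjusted p = 1.75e-05), with 0 and 5 counts in the WCS libraries against 1545 and 5674 in the chimera libraries. Among 18 other MEF2 and SRF partners 3 were higher in MyoD than GFP and 0 lower, with a median of 0.59 and a background of 3.67%. Smyd1, a muscle histone methyltransferase, was 62.8-fold higher (55.0 to 72.1), and Mamstr, a coactivator of MEF2, 16.7-fold (11.8 to 24.4). Smyd1 is also in the list of muscle MEF2 targets, so these 2 lists are not separate. Hdac7, a class IIa histone deacetylase that represses MEF2, was at 17.9 CPM in MyoD and 35.6 in GFP. Hdac9, the remaining gene past the rule, was at 24.7 CPM in MyoD and 2.68 in GFP. Hdac4 stood at 55.9 CPM in MyoD and 32.0 in GFP, and Hdac5 at 226 and 278. The histone deacetylase genes of the list thus moved in both directions.

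Of 9 measured TEAD factors, other Vgll genes and Hippo coactivators, with which VGLL2 and VGLL3 work, 0 met the size rule in MyoD over GFP (background 3.67%) and 1, Tead4, was lower in NeuroD2 (background 5.98%). Tead4, a TEAD factor of muscle and early embryos, was at 77.5 CPM in GFP, 156 in MyoD and 7.79 in NeuroD2, so that NeuroD2 had 0.101 of the GFP level (0.0874 to 0.115). Tead1, the TEAD factor of many tissues, was at 122 CPM in GFP, 207 in MyoD and 171 in NeuroD2. None of the 11 neuronal and activity genes known as MEF2 targets met the rule in MyoD, NeuroD2 or the chimera over GFP. The backgrounds there were 3.67%, 5.98% and 2.89%, so 0 of 11 is near the share of all genes. The medians of the 11 genes were -0.81, 0.15 and -0.29. Nedd9, a scaffold protein of the Cas family, was at 13.8 CPM in GFP, 3.80 in MyoD and 32.3 in NeuroD2.

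The targets of SRF divided within the list. Of 21 measured cytoskeletal and muscle targets 4 were higher in MyoD than GFP and 3 lower, with a median of -0.36 and a background of 3.67% in either direction. In NeuroD2 over GFP 0 were higher and 8 lower, with a median of -1.52 and a background of 5.98%. Actc1, a sarcomeric actin, was 122-fold higher in MyoD (116 to 128) and Acta1, the skeletal actin, 66.0-fold (53.2 to 82.9). Tagln, a smooth muscle cytoskeletal protein, was at 0.0550 of its GFP level in MyoD (0.0466 to 0.0646) and 0.0953 in NeuroD2 (0.0844 to 0.107). In the edgeR fit 8 of 22 tested genes of this list fell in WCS relative to the chimera and 0 rose, against 11.3% of all genes called, with Actc1 at -6.05 (edgeR adjusted p = 0.00246). Of 9 immediate early targets, a list that holds Srf itself, 1 was higher in MyoD than GFP, where the background was again 3.67%. That gene, Egr1, was 15.3-fold above GFP (13.2 to 17.9). Reads of the near-identical actins can be split between these genes by the counting.

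Library totals ran from 26410500 counts in the chimera to 43984066 in GFP. The 12 neuron markers summed to 311 CPM in MyoD, 538 in GFP, 836 in the chimera and 2233 to 5863 in the other 5 libraries, and the 8 markers of pluripotent cells to 2783 in GFP and 409 to 1193 elsewhere. Members of both lists differed. By the size rule 4 of the 12 neuron markers were higher in the chimera than GFP and 0 lower, with a background of 2.89%. Nefl (27.0 against 74.3 CPM) and Gap43 (54.2 against 92.5) were lower there. Sox2, at 124 CPM in GFP, was at 95.7 in MyoD and 108 in the chimera at MOI 100. It was at 126 to 205 CPM in the remaining libraries, and Zfp42 stayed under 1 CPM in every library. Other lists were lower or also mixed. Cardiac markers summed to 114 CPM in MyoD, of which Myh6 made up 102, with Hand1 and Myl7 at 0, and to 3.50 to 11.6 elsewhere. Smooth muscle markers summed to 1035 CPM in MyoD, of which Acta2 made up 888, and to 62.9 to 285 elsewhere. Endothelial and blood markers summed to 4.49 to 24.1 CPM, fibroblast markers to 32.3 to 122 and neural crest and glial markers to 6.94 to 25.0. Rn7s6, a gene of the 7S RNA family, ranged from 13.0 to 16.3 CPM over WC, WCS, GFP and MyoD. It ranged from 0.565 to 1.29 CPM over the chimera, NeuroD2, the chimera at MOI 100 and WCS at MOI 100. The split thus coincided with several comparisons above. It set the chimera apart from MyoD, GFP, WC and WCS, and the chimera at MOI 100 from MyoD and GFP. Also set apart were NeuroD2 from MyoD and GFP, and WCS at MOI 100 from WCS and GFP. The chimera lay on the same side as NeuroD2 and the chimera at MOI 100, and so did WCS at MOI 100. The part of these markers and of that split in the values of the 6 genes was not tested.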

How the data were processed

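Per the labels' protocols, RNA of 8 P19 cultures was extracted by either an RNeasy kit or Trizol, without saying which culture had which, selected with oligo-dT and sequenced by Illumina HiSeq. The authors deposited raw whole-number read counts for each Ensembl gene, and all 8 columns were used. The submitters' processing notes name CASAVA 1.8.2, TopHat2 2.0.8 and the mm9 build. How reads were counted, with which annotation and whether by strand, is not given in the sources used here. Symbols were matched by Ensembl identifier for 32850 of 37558 genes (87.5%). Exon lengths and overlaps came from GENCODE and promoters from RefSeq, both on GRCm38, a build other than that of the files.

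Counts were scaled by TMM in edgeR 4.0.16 (R 4.3.3, limma 3.58.1) to CPM over the 8 libraries. After this scaling, 3 counts correspond to 0.073 to 0.115 CPM. Pairs of libraries were compared by size only, at 4-fold on log2(CPM + 0.5) with 5 CPM in the higher library. The 4-library test used filterByExpr, glmQLFit and glmQLFTest with Benjamini-Hochberg adjustment at 0.05, without standard errors, and was tested on simulated data. Alternatives were DESeq2 1.42.0 size factors and Wald test, total counts, other filters, pseudocounts and thresholds, no MOI term, each of the 4 libraries left out and, chosen after seeing the data, another transcript length. Tables, intervals and figures were made in Python 3.11.15 with pandas 2.3.3, numpy 2.4.6, matplotlib 3.10.9 and scipy 1.17.1.

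The 6 genes and all lists were chosen with earlier results of these data known. Named were the 6 genes in all libraries, per member the 3 most like genes, and per list members from the 2 highest and the 2 lowest by the MyoD over GFP difference in log2(CPM + 0.5), not by the ratio of CPM. Mef2b, Hdac4, Hdac5, Hdac9, Hspb7, Cav3, Ppargc1a, Neurod2, Zfp42, Rn7s6 and the overlapping genes fall outside that rule and were chosen after their values were seen.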

Additional observations from a re-analysis of the deposited data

Results flagged for a closer look

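Mef2d, a MEF2 gene of broad expression, moved in opposite directions with the MOI 100 label in the 2 constructs. In the chimera its level at MOI 100 was 0.918 of the level without the label (0.865 to 0.974), at 76.3 against 83.1 CPM. In WCS it was 1.23-fold (1.15 to 1.31), at 63.9 against 52.1 CPM. The difference between the constructs was not tested, since 4 libraries leave no residual degree of freedom once it is in the model.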

How the results depend on the processing

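Of 306 recomputed log2 ratios of the 6 genes under other scalings and a pseudocount of 2 CPM, 230 moved by less than their counting interval, and 76 by more. The direction changed in 1 of the 306, Vgll2 in WCS at MOI 100 over WCS, at 3 counts each, which went from -0.02 to 0.003 with total counts. Total counts shifted the median of all genes by up to 0.20 (WCS at MOI 100 over GFP; NeuroD2 over GFP by 0.14). The counts of genes past the size rule depended on its thresholds. Shares of all genes at these other settings are not given, so the counts describe the 6 genes only. At 2-fold, 5 genes met it in MyoD over NeuroD2, 4 in the chimera over MyoD at either MOI label, and 1 in the chimera at MOI 100 over the chimera. Over GFP, 2 met it in NeuroD2 (Mef2d and Srf, both lower) and 2 in the chimera (Mef2a and Mef2c, both higher). Also over GFP, 2 met it in WC and in WCS (Mef2c higher, Mef2d lower) and 2 in WCS at MOI 100 (Mef2c higher, Srf lower). At 8-fold, 1 (Mef2c) met it in the chimera at MOI 100 over MyoD, 1 (Vgll2) in WCS over the chimera at MOI 100, and 0 in WCS at MOI 100 over GFP, the chimera over NeuroD2, and WC and WCS over the chimera. With no minimum level, 2 (Mef2c and Vgll2) met it in the chimera over GFP, the chimera over NeuroD2, WC over the chimera and WCS over the chimera. With a pseudocount of 2 CPM, 0 met it in WCS at MOI 100 over GFP and in WC and WCS over the chimera. With total counts, 1 (Mef2c) met it in WC over GFP and in WCS over GFP.

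In the 4-library edgeR test, the MOI label served as the block, so the construct difference was taken within each MOI label, over 2 pairs of libraries. Without the MOI term (no replicate block), 0 genes and 0 of the 6 passed, against 1137 genes and 2 of the 6 at an unadjusted p under 0.05. Mef2a was then at -0.65 (edgeR adjusted p = 0.732), Mef2c at -2.29 (0.257) and Vgll2 at -5.67 (0.195). With each library left out in turn, 0 to 103 genes and 0 to 1 of the 6 passed, with Mef2a at -0.88 to -0.35, Mef2c at -2.72 to -1.91 and Vgll2 at -6.26 to -4.65. Those fits have fewer samples, and the lone library of a construct is assumed to vary like the other. Srf passed in edgeR with DESeq2 size factors (-0.49, adjusted p = 0.0395) and with total counts (-0.48, adjusted p = 0.04). For the MOI label, Mef2a lost its call in the DESeq2 Wald test (0.43, adjusted p = 0.0886) and in edgeR with no filter (0.41, adjusted p = 0.0649), and Vgll2 gained one in edgeR with DESeq2 size factors (1.39, adjusted p = 0.0497) and total counts (1.42, adjusted p = 0.0389). The cause of these shifts was not tested. The other settings called 1348 to 2169 genes, and Vgll3 had no value with a filter of 5 CPM. Per kilobase of the longest transcript, the GFP shares became 64.0% for Mef2d and 0.413% for Mef2c. Depth limits Vgll3 throughout and Vgll2 outside MyoD and the chimera.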
